A study of Mus musculus with 56 samples.

Results

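A set of 8 transcription factors of the B cell lineage was followed in mouse blood after injection of 90Sr, namely Pax5, Ebf1, Spib, Pou2af1, Pou2f2, Bach2, Bcl11a and Ikzf3. They were chosen by gene name, and these 8 genes are among 30199 gene names on the array and 14581 genes that were tested. Whole blood was taken by cardiac puncture from C57BL/6 mice, about 10-12 weeks old on arrival, at 5 times after injection (days 4, 7, 9, 25 and 30). The irradiated mice had received 200 kBq of 90Sr, with 85Sr as a tracer, into the tail vein, and the control mice the saline vehicle alone. There were 4 control and 4 irradiated mice at day 4, and 6 of each at every later day, so that each day had controls of its own and 56 mice were measured on 56 one-color arrays. 90Sr is a beta emitter that settles in bone and irradiates the marrow from there, so that day after injection and accumulated dose cannot be told apart. Since whole blood was measured, fewer B cells and less RNA per B cell cannot be told apart either. The study counted blood smears by hand and reported no significant difference in cell counts between the groups. Its supplement names these as counts of lymphocytes, not of B cells.

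B cells are made in the marrow under a small set of DNA-binding proteins. Ebf1 starts the program together with E proteins, and Pax5 holds cells to it by turning on B cell genes and silencing those of other lineages. Spib is an Ets factor of B cells and plasmacytoid dendritic cells. Pou2f2 (Oct-2) binds the octamer element of immunoglobulin promoters, and Pou2af1 (OCA-B) is the coactivator that it recruits. Bach2 represses the plasma cell program, Bcl11a is a zinc finger protein that early B cell development needs and that silences fetal globin in red cells, and Ikzf3 (Aiolos) is an Ikaros family zinc finger protein of B, T and NK cells.

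All 8 genes passed the filters on detection and on variation, and were measured by 13 probes. Each gene was read from the probe with the highest mean over all arrays, and the values below are log2 processed signals of that probe minus the median of the same array, which compare mice for 1 probe but not 1 probe with another. In the annotation of the array (mm9), Ebf1 was read at 44818438 to 44818497 of chromosome 11, Spib at 51781392 to 51781451 of chromosome 7, Pou2af1 at 51048121 to 51048180 of chromosome 9, Bach2 at 32673009 to 32673068 of chromosome 4, and Ikzf3 at 98326176 to 98326235 of chromosome 11. For Bcl11a the representative probe lay at 24073114 to 24073173 of chromosome 11, for Pax5 at 44658421 to 44658480 of chromosome 4 and for Pou2f2 at 25877735 to 25877794 of chromosome 7. Pax5 and Pou2f2 each had a pair of probes of 60 bases, which are shown because the second probe of Pou2f2 gave a second reading of that gene, whereas the second probe of Pax5 was well above background on 1 array alone. The Pax5 probes begin at bases 751 and 1009 of the same transcript, and those of Pou2f2 at base 1661 of one transcript and base 1174 of another. The first of each pair is the representative probe.
Pax5 from base 751: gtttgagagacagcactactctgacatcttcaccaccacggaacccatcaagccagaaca
Pax5 from base 1009: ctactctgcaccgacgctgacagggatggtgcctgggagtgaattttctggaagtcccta
Pou2f2 from base 1661: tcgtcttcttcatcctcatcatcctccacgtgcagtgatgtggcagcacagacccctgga
Pou2f2 from base 1174: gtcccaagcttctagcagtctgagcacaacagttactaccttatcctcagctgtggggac

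The arrays of irradiated mice had fewer spots well above background, between 14389 and 22524 against 17809 and 24698 in the controls. Precision is limited by how many arrays there were. One slide held 4 arrays, and at day 4 each group filled a slide of its own, so that slide and group cannot be told apart there. From day 7 onward, 1 slide a day carried 2 mice of either group, and the values within it are given after the results. The other 4 mice of each group filled a slide of their own group. At days 7 and 30 that slide of irradiated mice was scanned on another day than all controls. Scan day and group cannot be told apart for those irradiated mice.

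Of the 8 factors 6, namely Ebf1, Spib, Pou2af1, Pou2f2, Bach2 and Bcl11a, were called lower in irradiated mice at all 5 days. The other two, Pax5 and Ikzf3, were called at no day. The call needed a limma p, unadjusted, under 0.001 and a difference of at least 2-fold. Over all genes tested, the share called lower was 23.1%, 16.1%, 17.9%, 26.5% and 21.3% in order of day, and 8.4% were called lower throughout. For these 6 factors every irradiated mouse of a day lay below every control mouse of that day, at each of the 5 days. Over all genes tested, 35.9%, 27.6%, 23.3%, 30.5% and 16.9% were separated in this way in order of day, and 9.08% throughout. With the slide as a fixed block, whose estimate rests on the 4 mice a day of a slide with both groups, 3 members were called lower at day 9 and 0 at day 25. This loss was not particular to the members. Of the 106 tested genes of the other lists described below, that block left 3 called lower at day 25, against 44 without it. The median log2 difference over the 8 members was -1.98, -1.54, -1.68, -1.97 and -2.07 in order of day, against 0.04, 0.07, -0.17, 0.11 and 0.01 over all genes tested.

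**Figure D1:**
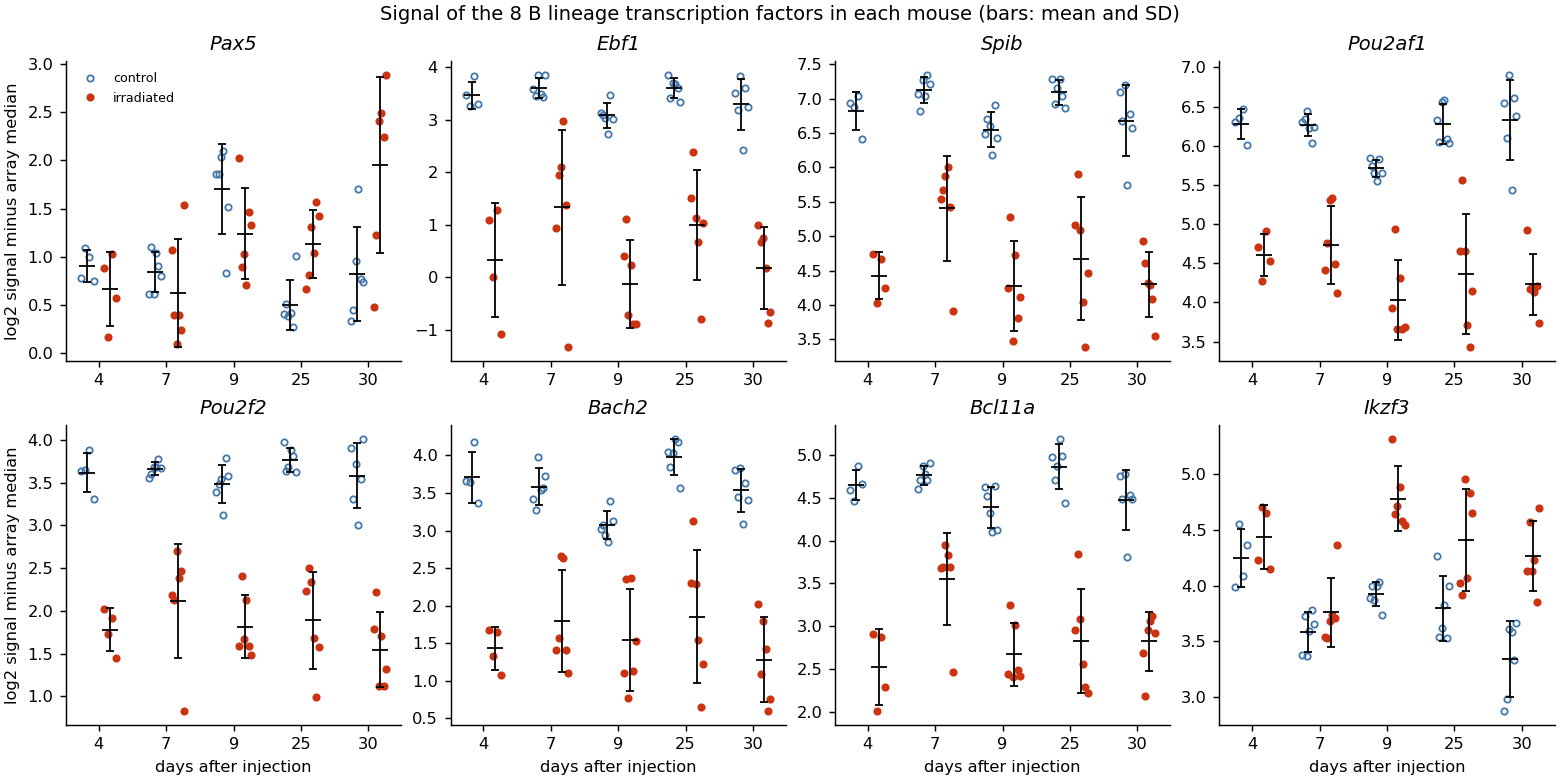
Log2 signal minus the array median (vertical axis) of each member in each mouse by day after injection (horizontal axis), with control mice as open and irradiated mice as filled points and the mean and SD of each group as bars. The irradiated mice lie below all control mice of their day in the panels of Ebf1, Spib, Pou2af1, Pou2f2, Bach2 and Bcl11a, and the groups overlap at all 5 days for Pax5 and at days 4, 7 and 25 for Ikzf3.

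Ebf1, the factor that opens the B cell program, had the largest measured difference of the 8 at days 4, 7, 25 and 30. At day 4 its log2 signal was 3.47, 3.26, 3.83 and 3.29 in the 4 control mice and 1.09, 0.01, 1.29 and -1.07 in the 4 irradiated mice. The lowest, median and highest values of day 7 were 3.43, 3.53 and 3.84 for the controls and -1.32, 1.66 and 2.97 for the irradiated mice, and those of day 9 were 2.73, 3.06 and 3.47 against -0.89, -0.24 and 1.11. On day 25 these were 3.33, 3.64 and 3.85 against -0.78, 1.08 and 2.39, and on day 30 2.43, 3.37 and 3.83 against -0.86, 0.43 and 1.002. The control mice kept within a narrow band while the irradiated mice spread widely, and the groups did not overlap at any day. The signal was well above background in every control mouse, whereas among irradiated mice it was so in 2 of 4 on day 4 and, from day 7 onward, in 5, 0, 3 and 1 of 6. The log2 differences of days 4, 7, 25 and 30 were -3.13 (standard error 0.46), -2.27 (0.52), -2.60 (0.38) and -3.11 (0.34), and their adjusted p by limma (Benjamini-Hochberg) 3.97e-04, 0.00203, 1.46e-04 and 2.00e-05. At day 9, where no irradiated mouse had a signal well above background, Ebf1 was at least 4.83-fold lower (adjusted p = 1.57e-05), a bound that does not rank it against the other members. The call at day 7 was lost without any single control mouse of that day, and without irradiated replicate 1 or 5, with differences between -2.30 and -2.19 in those fits. It was lost too with arrays scaled on their 75th percentile (-1.92), on the median of detected probes (-1.96) or by quantile normalization (-2.04).

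Spib, the Ets factor, was well above background on all 56 arrays. At day 4 it measured 6.93, 6.88, 7.03 and 6.41 in the control mice and 4.74, 4.04, 4.67 and 4.25 in the irradiated mice. At day 7 the lowest, median and highest values were 6.82, 7.14 and 7.35 for the control mice, against 3.91, 5.61 and 6.01 for the irradiated ones. At day 9 they were 6.18, 6.55 and 6.90 against 3.48, 4.18 and 5.28. At day 25 they were 6.87, 7.10 and 7.28 against 3.39, 4.78 and 5.90, and at day 30 they were 5.75, 6.72 and 7.19 against 3.55, 4.30 and 4.93. The groups did not overlap at any of these days, and 1 control mouse of day 30 was the lowest control of the study. The log2 difference was -2.39 (standard error 0.21), -1.72 (0.29), -2.27 (0.28), -2.42 (0.33) and -2.38 (0.28) in order of day, or between 3.30-fold and 5.34-fold lower, with adjusted p from limma between 3.01e-05 and 3.17e-04.

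Pou2af1 and Pou2f2, the coactivator and the octamer-binding factor that work as a pair, were both lower. In the day 4 controls Pou2af1 measured 6.30, 6.35, 6.46 and 6.01, and in the irradiated mice 4.70, 4.28, 4.92 and 4.52. Pou2f2 measured 3.64, 3.65, 3.88 and 3.31 in the same controls and 2.02, 1.73, 1.91 and 1.45 in the irradiated mice. Neither gene had overlapping groups. The log2 difference of Pou2af1 was -1.68 (standard error 0.18), -1.53 (0.21), -1.68 (0.24), -1.91 (0.30) and -2.10 (0.27) in order of day, between 2.88-fold and 4.28-fold lower. That of Pou2f2 was -1.84 (0.19), -1.55 (0.25), -1.68 (0.22), -1.88 (0.24) and -2.04 (0.25), between 2.93-fold and 4.11-fold lower. Adjusted p from limma lay between 4.77e-05 and 1.92e-04 for Pou2af1 and between 3.97e-05 and 2.71e-04 for Pou2f2. At day 30 the lowest, median and highest values of Pou2af1 were 5.43, 6.46 and 6.91 for the control mice, against 3.74, 4.19 and 4.92 for the irradiated ones, and those of Pou2f2 were 3.01, 3.63 and 4.02 against 1.12, 1.51 and 2.22. The second Pou2f2 probe, whose sequence begins at base 1174 above, was also called lower at all 5 days, with log2 differences of -1.64, -1.26, -1.23, -1.96 and -1.67. At day 30 it was well above background in 6 of 6 control mice and in 0 of 6 irradiated mice, which allows only a bound of at least 2.63-fold lower. The difference between the 2 Pou2f2 probes did not pass at any day (adjusted p from limma between 0.0878 and 0.72).

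Bach2, the repressor of the plasma cell program, measured 3.65, 3.64, 4.18 and 3.36 in the day 4 controls and 1.68, 1.33, 1.65 and 1.07 in the irradiated mice. At day 25 the lowest, median and highest values were 3.57, 4.03 and 4.22 for the control mice, against 0.66, 1.92 and 3.12 for the irradiated ones. The groups did not overlap, although the highest irradiated mouse came close to the lowest control. The log2 difference was -2.28 (standard error 0.22), -1.79 (0.27), -1.52 (0.28), -2.12 (0.34) and -2.25 (0.27) in order of day, between 2.88-fold and 4.84-fold lower, with adjusted p from limma between 3.01e-05 and 5.00e-04. A second Bach2 probe was well above background on 0 of the 56 arrays and gives no reading of the gene.

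Bcl11a was the only member whose readable probes pointed in opposite directions. The representative probe measured 4.59, 4.46, 4.87 and 4.66 in the day 4 controls and 2.90, 2.01, 2.88 and 2.30 in the irradiated mice. Its log2 difference was -2.12 (standard error 0.23), -1.21 (0.22), -1.71 (0.22), -2.03 (0.26) and -1.65 (0.23) in order of day, with adjusted p from limma between 5.48e-05 and 4.32e-04, or between 2.31-fold and 4.36-fold lower. A second probe, at 24068355 to 24068414 of chromosome 11, was called lower at all 5 days too, with log2 differences of -2.83, -1.58, -2.24, -2.94 and -2.68. The third probe, at 24074059 to 24074118 of the same chromosome, was well above background on all 56 arrays and measured 1.86, 1.90, 1.73 and 2.09 in the day 4 controls and 2.39, 2.83, 2.64 and 2.13 in the irradiated mice. Its log2 difference was 0.60, 0.52, 0.74, 0.63 and 0.46 in order of day, above 0 at each day but under 2-fold, so that it was not called (adjusted p from limma 0.0182, 0.0122, 0.0242, 0.0136 and 0.148). The annotation of the array gives each of the 3 probes a transcript record of its own. The difference between this probe and the representative probe within the same mouse changed by 2.72 (standard error 0.28), 1.73 (0.29), 2.45 (0.29), 2.67 (0.36) and 2.11 (0.36) from control to irradiated mice (adjusted p from limma between 3.23e-05 and 2.93e-04). At day 7 the call of the representative probe was lost without irradiated replicate 6, with a log2 difference of -0.99, under the mean of the 3 probes, with -0.76, and with the 75th percentile, detected-probe and quantile scalings named above, with -0.86, -0.90 and -0.92.

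**Figure D2:**
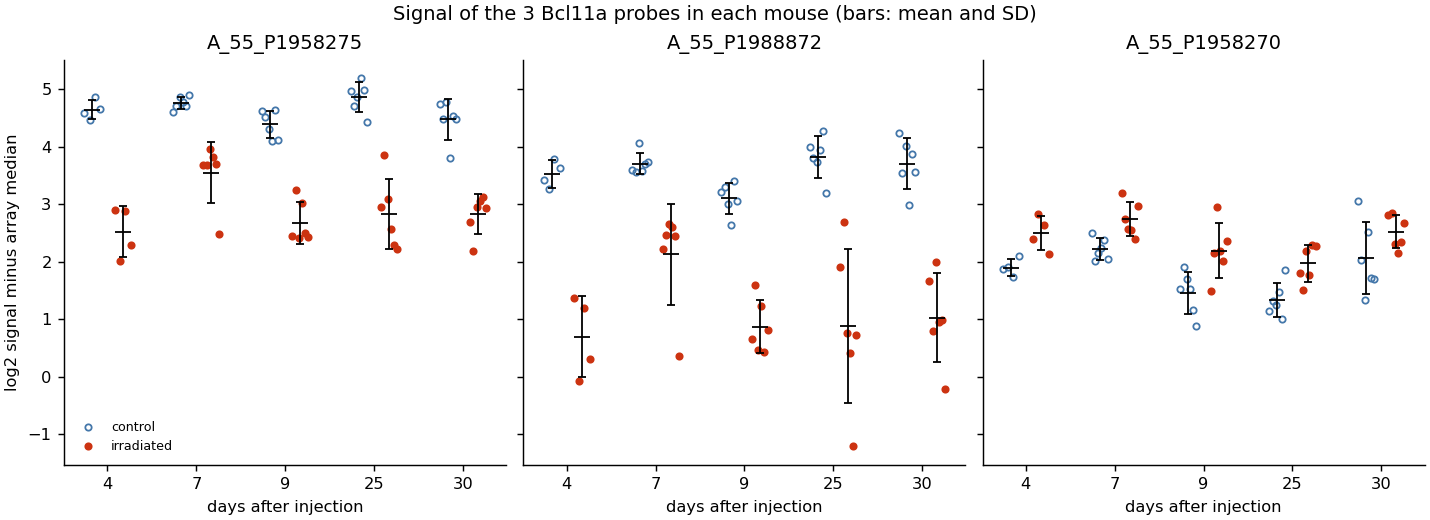
Log2 signal minus the array median (vertical axis) of the 3 probes of Bcl11a in each mouse by day after injection (horizontal axis), with control mice as open and irradiated mice as filled points and the mean and SD of each group as bars. In the left and middle panels every irradiated mouse lies below the control mice of its day, and in the right panel the irradiated means lie above the control means, by 0.46 to 0.74.

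Pax5, the commitment factor, behaved unlike the 6 genes above. At day 4 its signal was 0.78, 1.09, 0.999 and 0.74 in the control mice and 0.88, 0.16, 1.03 and 0.57 in the irradiated mice. The lowest, median and highest values of day 7 were 0.61, 0.85 and 1.102 for the controls and 0.09, 0.39 and 1.54 for the irradiated mice, and those of day 9 were 0.83, 1.86 and 2.10 against 0.70, 1.18 and 2.02. On day 25 these were 0.26, 0.41 and 1.002 against 0.66, 1.17 and 1.56, and on day 30 0.33, 0.75 and 1.71 against 0.48, 2.33 and 2.89. The groups overlapped at every day. The log2 difference was -0.24 (standard error 0.21), -0.22 (0.23), -0.46 (0.27), 0.64 (0.21) and 1.13 (0.37) in order of day, with adjusted p from limma of 0.324, 0.406, 0.173, 0.0128 and 0.0128, and Pax5 was called at no day. At day 30 the difference exceeded 2-fold, and 4 of 6 irradiated mice lay above every control, but the unadjusted p of 0.0077 missed the threshold. Those 4 mice filled a slide without controls, scanned on another day than all day 30 controls. Slide, scan day and group cannot be told apart for them. The other irradiated mice of day 30, which shared a slide with controls, measured 0.48 and 1.22. The sign at days 4 and 7 turned with 75th percentile scaling (0.23 and 0.12) and with detected-probe scaling (0.20 and 0.086). With these 2 scalings Pax5 was called higher at day 25 (1.12 and 1.06). With scaling on the spike-in probes it was called lower at days 7 and 9 (-2.14 and -1.75). In 1 fit of all 10 groups it was called higher at day 30 (1.13). Without irradiated replicate 1 of day 30 the log2 difference of that day was 1.43 and Pax5 was called higher. The probe was close to the background of the array, well above it on 49 of 56 arrays, and the second Pax5 probe, from base 1009, was well above it on 1 array and failed the detection filter.

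Ikzf3, the Ikaros family member shared with T and NK cells, was not lower at any day with arrays scaled on their median. It measured 3.99, 4.56, 4.08 and 4.36 in the day 4 controls and 4.23, 4.71, 4.65 and 4.15 in the irradiated mice. At day 9 the lowest, median and highest values were 3.74, 3.94 and 4.03 for the control mice, against 4.54, 4.68 and 5.32 for the irradiated ones, and at day 30 they were 2.87, 3.46 and 3.66 against 3.85, 4.18 and 4.70. All 6 irradiated mice lay above all controls at those 2 days, as did 5.58% and 15% of all genes tested, and the groups overlapped at the other days. The log2 difference was 0.19 (standard error 0.20), 0.18 (0.16), 0.86 (0.19), 0.61 (0.23) and 0.93 (0.23) in order of day, with adjusted p from limma of 0.425, 0.344, 0.00195, 0.0281 and 0.00196. The unadjusted p was under 0.001 at days 9 and 30 (4.15e-04 and 8.28e-04), but the differences of 1.81-fold and 1.90-fold were under the 2-fold minimum. Over all genes tested, 2.8%, 3.47%, 5.45%, 7.49% and 19.7% were called higher in order of day, and no member was among them. With arrays scaled on their 75th percentile, Ikzf3 was called higher at days 9, 25 and 30, with log2 differences of 1.25, 1.09 and 1.11. With scaling on the spike-in probes, its sign turned at days 4, 7 and 9 (-0.35, -1.74 and -0.43). At day 7 Ikzf3 was then called lower (adjusted p = 1.10e-04 from limma).

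**Figure D3:**
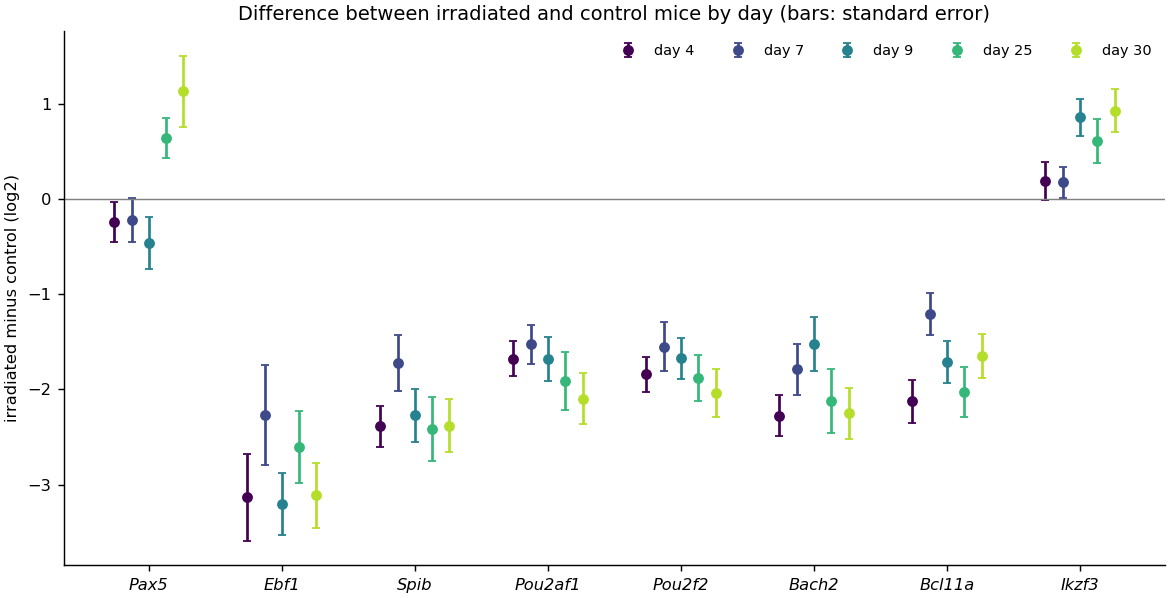
Irradiated minus control difference in log2 signal (vertical axis) of each member (horizontal axis) at each of the 5 days (colors), with bars for the standard error from limma. Ebf1, Spib, Pou2af1, Pou2f2, Bach2 and Bcl11a lie between -3.20 and -1.21 at every day as measured, while Pax5 and Ikzf3 lie between -0.46 and 1.13. The lowest point, Ebf1 at day 9, rests on irradiated mice of which none was well above background, and only the bound of 4.83-fold holds there.

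Set in order of their mean, the 5 control groups came before the 5 irradiated groups for each of the 6 lower factors. The order within the controls and within the irradiated groups was mostly not beyond the spread between mice. Neighboring groups in the order overlapped throughout for Ebf1, Bach2, Pax5 and Ikzf3. For Spib, Pou2f2 and Bcl11a the only gap lay between the lowest control group (day 9) and the highest irradiated group (day 7), by 1.15, 1.37 and 0.84 on the log2 scale. Pou2af1 had that gap too, 0.97, and another of 0.55 between the day 7 and the day 9 controls.

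The controls themselves moved from day to day for some members. In limma's F test over the 5 control groups, in a fit of all 10 groups, Pax5 (adjusted p = 0.00475) and Ikzf3 (adjusted p = 0.00241) differed between days, 2 of the 8 members, while 48.2% of all genes tested did. The control mean of Pax5 ranged from 0.49 ± 0.26 (SD, n = 6) at day 25 to 1.70 ± 0.47 (SD, n = 6) at day 9, and that of Ikzf3 from 3.34 ± 0.34 (SD, n = 6) at day 30 to 4.25 ± 0.26 (SD, n = 4) at day 4. In a fit of the control mice alone, which leaves out the wider spread of the irradiated mice, 62.3% of all genes differed, and so did 6 members, with Spib (adjusted p = 0.0284), Pou2af1 (0.0168), Bach2 (7.22e-04) and Bcl11a (0.0493) beside Pax5 and Ikzf3. Each comparison of irradiated with control mice used the controls of its own day.

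Whether the effect of 90Sr differed between days was tested by limma's F test of the interaction. Only Pax5 among the members passed (adjusted p = 0.00613), whose measured difference was below 0 up to day 9 and above 0 from day 25 onward, although its sign at days 4 and 7 turned with the scalings named above and, at days 7 and 9, with the slide as a fixed block (0.45 and 0.28). Over all genes tested, 22.5% passed. Ikzf3 had an adjusted p of 0.0599, and passed when replicate 4 or 6 of the day 30 controls (0.0486 and 0.0477), irradiated replicate 6 of day 7 (0.0229), irradiated replicate 2 or 3 of day 25 (0.0455 and 0.0484) or irradiated replicate 5 of day 30 (0.0448) was left out. Bcl11a had an adjusted p of 0.174 and passed without irradiated replicate 6 of day 7 (0.028) or irradiated replicate 2 of day 25 (0.0476). For Bach2, Spib, Ebf1, Pou2af1 and Pou2f2 adjusted p lay between 0.521 and 0.743, which does not show that their effect was the same at each day. When slides entered as a random block, Pax5 did not pass either (adjusted p = 0.178).

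Other genes of B cells were lower as well. Of 20 listed B cell surface and signaling genes, 19 were tested, since Cd22 failed the variation filter. Of these 19 genes 17, 18, 16, 19 and 18 were called lower in order of day, with 0 called higher. Their median log2 difference was -2.14, -1.71, -2.08, -2.41 and -2.41, with Blk, Cd180 and Fcrl1 taken as measured although at some days no irradiated mouse had them well above background. Among them Cd79b, a chain of the B cell receptor complex, had log2 differences between -3.03 and -1.89, and Ms4a1 (CD20) between -2.71 and -1.71. Factors that moved more or less than B cell genes as a whole were sought next. For this the mean of the 20 B cell genes, Cd22 included, was subtracted within each mouse. The difference was tested again, called at an adjusted p under 0.05 from limma. On this scale 0.302%, 0.377%, 0.446%, 0.0754% and 0.295% of all genes were lower in order of day, and 87.2%, 84.4%, 89.7%, 91% and 91.3% were higher.

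Ebf1 was lower than the B cell gene mean at 3 of the 5 days. Relative to their mean its log2 difference was -1.19 (standard error 0.38, adjusted p = 0.0126) on day 4, -1.38 (0.24, 1.41e-04) on day 9 and -0.99 (0.26, 0.00232) on day 30, and all irradiated mice of these days lay below all controls, as they did for 0.267%, 0.24% and 0.096% of all genes. At day 7 it was -0.70 (0.36, 0.0794) and on day 25 -0.46 (0.27, 0.109), and neither passed. Since the Ebf1 signal of many irradiated mice was not well above background, these values are measured differences near the floor of the array. At day 9, where the bound above applies to every irradiated mouse, the relative value rests on signals below that floor. With a filter on probes well above background on 75% of arrays Ebf1 was not tested.

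Spib kept close to the B cell genes, with relative log2 differences between -0.45 and -0.15, and passed at day 9 only (-0.45, standard error 0.19, adjusted p = 0.0342, with 5 of 6 irradiated mice below all controls). Pou2af1 differed from the B cell gene mean by 0.02 to 0.26 and Pou2f2 by 0.02 to 0.26, and neither passed at any day (adjusted p from limma between 0.225 and 0.898 for Pou2af1 and between 0.258 and 0.914 for Pou2f2). The standard errors of these values were 0.14 to 0.23, and a p that misses the threshold does not show that these genes moved alike. Bach2 lay between -0.33 and 0.30 and passed at no day (adjusted p between 0.162 and 0.94). On its representative probe Bcl11a was higher than the B cell gene mean at day 7, by 0.36 (standard error 0.16, adjusted p = 0.0431 from limma). There 6 of 6 irradiated mice lay above all controls, as for 62.8% of all genes, and Bcl11a did not pass elsewhere. The result depends on the probe. Within the same mouse the second Bcl11a probe moved below the representative probe by -0.71, -0.37, -0.53, -0.91 and -1.03 in order of day. Adjusted p from limma was 0.0051, 0.0662, 0.0241, 0.0279 and 0.00956.

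Pax5 and Ikzf3 were higher than the B cell gene mean at all 5 days, as were most genes tested. For Pax5 the relative difference was 1.70, 1.35, 1.36, 2.78 and 3.25 in order of day (adjusted p from limma between 1.45e-05 and 0.0083), and for Ikzf3 2.13, 1.75, 2.68, 2.75 and 3.05 (adjusted p between 6.61e-07 and 3.61e-04). Of the 8 members these were the only 2 that were higher at more than 1 day.

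**Figure D4:**
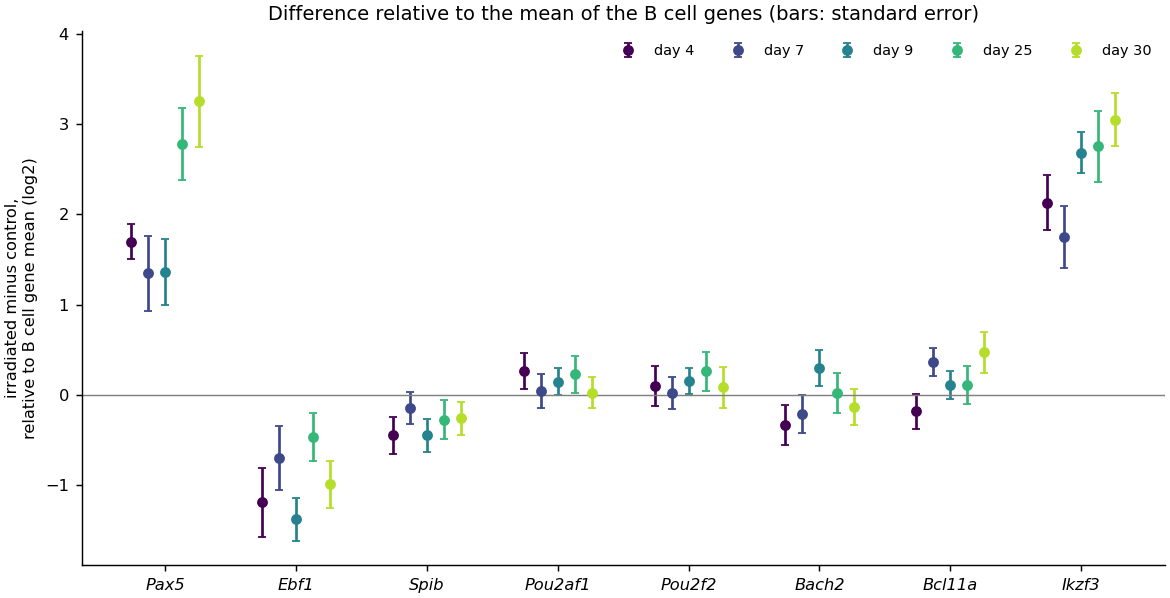
Irradiated minus control difference in log2 signal after subtraction of the mean of 20 B cell genes in each mouse (vertical axis), for each member (horizontal axis) and day (colors), with bars for the standard error from limma. Spib, Pou2af1, Pou2f2, Bach2 and Bcl11a lie between -0.45 and 0.47, Ebf1 between -1.38 (day 9, as measured below the floor) and -0.46, and Pax5 and Ikzf3 between 1.35 and 3.25.

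Mice of 1 group also differed among themselves. After subtraction of each group's mean, the deviations of the 56 mice correlated by r = 0.87 between Ebf1 and Spib, 0.89 between Pou2af1 and Spib and 0.85 between Pou2f2 and Spib, while for Pax5 and Spib r was -0.55 and for Ikzf3 and Spib -0.35. The deviations of Ebf1 and of Bach2 correlated with those of the B cell gene mean by r = 0.84 each, and those of Pax5 and Ikzf3 by -0.50 and -0.35. These values share their arrays and array medians and are descriptions. The deviations also moved with the number of spots well above background on the same array, with r = 0.60 for Ebf1, 0.55 for Spib, 0.54 for Pou2af1, 0.51 for Bach2, 0.38 for Pou2f2 and 0.28 for Bcl11a, and -0.31 and -0.16 for Pax5 and Ikzf3. The part of this in the results was not tested.

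The genes most like each member over the 56 arrays were ranked by Pearson's r among 18797 detected genes. For Ebf1 they were Ms4a1, Srpk3 and H2-Ab1 (r = 0.963 for each), and for Spib Ms4a1, H2-Ab1 and Cnn3 (r between 0.986 and 0.988). Pou2af1 was most like Snx8, Cd79b and Csnk1g3 (r = 0.978 for each), and Pou2f2 like Irf8, H2-Ab1 and Tnfrsf13c (r between 0.970 and 0.972). For Bach2 they were Zfp36l1, Kif21b and Foxo1 (r between 0.971 and 0.973), and for Bcl11a 1700021K19Rik, Arpc5l and Swap70 (r between 0.976 and 0.978). Pax5 was most like Gys1, Srcap and Gm10383 (r between 0.891 and 0.910) and Ikzf3 like Kcne1l, Tmprss7 and Gm14151 (r between 0.954 and 0.973), none of which is in the list of B cell genes. For the 6 lower factors these r include the difference between control and irradiated mice that the genes share. Within groups they lay between 0.83 and 0.95 for these 6, and between 0.88 and 0.93 for Pax5 and Ikzf3.

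Of 15 listed relatives of the 8 factors within their gene families, 12 were tested. In order of day 3, 1, 1, 3 and 3 of them were called lower, where the share over all genes was 23.1%, 16.1%, 17.9%, 26.5% and 21.3%, so that the counts lay near or under the background. Called higher were 0, 0, 1, 0 and 4, the last at day 30, where 19.7% of all genes were. Ikzf1 (Ikaros), the founder of the family of Ikzf3, was lower at all 5 days, with log2 differences of -1.37, -1.09, -1.32, -1.52 and -1.22 and all irradiated mice below all controls. Of all genes tested, 9.08% were separated in this way at all 5 days. Pou2f1 (Oct-1), the broadly expressed relative of Pou2f2, was called lower at days 4, 25 and 30 (-1.48, -1.33 and -1.45), with -0.91 and -0.73 at days 7 and 9. Bach1 was called lower at day 4 (-1.38). Bcl11b, the T cell counterpart of Bcl11a, was called at no day, with differences between -1.28 and -0.31. Ikzf5 was called higher at day 9 (1.24), and Ikzf4, Ebf4 and Pax2 at day 30 (1.79, 1.20 and 1.42). Pax8, also called higher at day 30, was well above background in 2 of 6 irradiated and 0 of 6 control mice, which allows a bound of at least 1.48-fold higher. Spic, the relative of Spib, was called lower at days 25 and 30, where it was well above background in 0 of 6 irradiated mice, and only day 30 allowed a bound, at least 1.32-fold lower. Pou2f3 was called at no day, with differences between 0.59 and 0.91. Ikzf2, also called at no day, was well above background in 0 irradiated mice from day 7 onward and in 0 control mice at days 7 and 9, which allows no fold at these days.

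**Figure D5:**
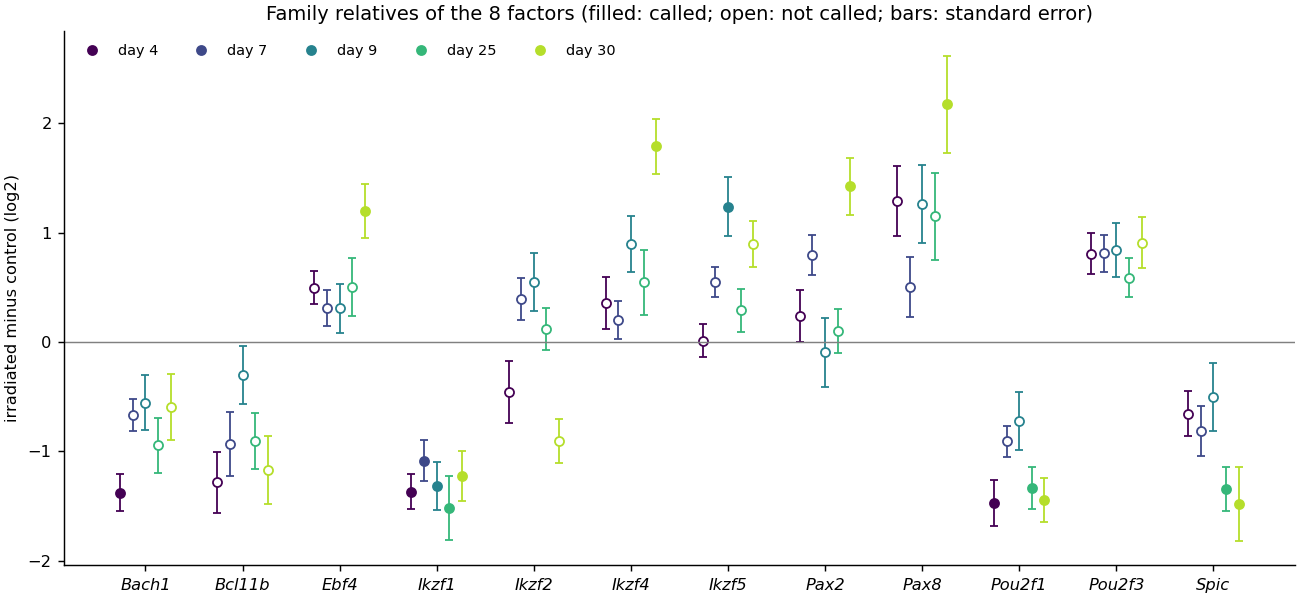
Irradiated minus control difference in log2 signal (vertical axis) of the 12 tested family relatives (horizontal axis) at each of the 5 days (colors), as measured, with filled points where the gene was called, open points where it was not, and bars for the standard error from limma. Ikzf1 is filled and below 0 at all 5 days, and Ebf4, Ikzf4, Pax2 and Pax8 are filled and above 0 at day 30. Pax8, Spic and Ikzf2 are drawn as measured, although at several days no mouse of 1 or both groups was well above background.

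Many other transcription factors of lymphoid cells were lower. Of 21 tested, 12, 12, 10, 13 and 12 were called lower in order of day, with a median log2 difference of -1.44, -1.12, -1.20, -1.22 and -1.15. At day 9, 1 gene called lower was well above background in 0 irradiated mice, a bound of at least 2.31-fold lower. The share called lower over all genes tested was 23.1%, 16.1%, 17.9%, 26.5% and 21.3%. Irf8, a factor of B cells and monocytes, was called lower at all 5 days (between -1.99 and -1.62), as was Klf2, which keeps lymphocytes circulating (between -1.44 and -1.20). Tcf3, which encodes E proteins that work with Ebf1, was called lower at all 5 days too, with log2 differences between -2.04 and -1.46. Lef1, a factor of T cells and early B cells, was called at no day, with differences between -0.99 and -0.78. Klf3 was called at no day (between -0.66 and -0.31). Mef2c was called higher at day 30 (1.38), the only factor of this list called higher.

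Marker genes of other blood cells were counted in the same way, and the part of these cells in the results was not tested. Over all genes tested, 23.1%, 16.1%, 17.9%, 26.5% and 21.3% were called lower in order of day. Called higher were 2.8%, 3.47%, 5.45%, 7.49% and 19.7%. Of 12 tested T cell genes 3, 1, 1, 3 and 3 were called lower in order of day and 1 higher at day 30, with medians of -0.78, -0.71, -0.64, -0.82 and -0.79, and the mean of all 16 listed T cell genes ran from 5.08 to 5.80 in control and from 4.21 to 5.65 in irradiated mice. Of the 12, 10, 10, 11, 10 and 10 had a difference below 0 in order of day. Cd3e and Cd4 were called at no day, and Cd2, which B cells also carry in the mouse, was called lower at all 5 days (between -2.02 and -1.21). The part of B cells in the differences of Cd2 and of the genes below was not tested. Of 9 NK cell genes, 1 was called lower at day 7 and 1 at day 9, with medians between -0.91 and -0.40. Each was well above background in 0 irradiated mice of its day, and only day 7 allowed a bound, at least 1.99-fold lower. Of 7 plasmacytoid dendritic cell genes, 1, 2, 1, 2 and 2 were lower and 1, 0, 1, 0 and 2 higher. The gene called higher at days 4 and 9 was near background. At day 4 it was well above background in 1 irradiated and 0 control mice, which allows a bound of at least 1.85-fold higher. At day 9 it was so in 0 mice of either group, which allows no fold. Among the 7 genes Tcf4, which B cells also express, was lower at all 5 days. Siglech, which marks these cells, was called at day 30 alone, higher by 1.39. Of 6 plasma cell genes 2 were lower at each day, Irf4 (measured between -3.32 and -1.81, but well above background in 1 to 3 irradiated mice a day, and at day 30 in 1 of 6) and Mzb1 (between -1.90 and -1.42), both of which B cells express as well, while the defining gene Sdc1 failed the detection filter. Of 7 monocyte genes 3, 3, 4, 3 and 2 were lower, with Cx3cr1 among them at all 5 days and Csf1r at days 4 to 25. At day 9 another of them was well above background in 0 irradiated mice, a bound of at least 1.67-fold lower. Of 10 neutrophil genes 2, 1, 0, 2 and 0 were lower. Of 7 tested erythroid genes 0, 1, 4, 0 and 4 were higher and none lower, with medians of 0.58, 0.64, 1.20, 0.60 and 1.09, and the mean of 10 erythroid genes lay higher in all irradiated mice than in all controls at days 4, 7, 9 and 30. Of all single genes tested, 19.5%, 9.96%, 5.58% and 15% were separated in this way at those days. The 1 tested platelet gene was called at no day.

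Within the slides that held both groups, 2 control and 2 irradiated mice at each of days 7, 9, 25 and 30, the 6 lower factors had both irradiated mice below both controls at each of these days, as did 26.6% of all genes tested (40.4%, 36.7%, 39.4% and 38.5% at the single days). The differences of Ebf1 within the slide were -3.71, -2.49, -1.52 and -2.58 on the log2 scale, and those of Spib -2.22, -1.90, -1.42 and -1.91. At day 25 the values of all 6 were smaller within the slide, between -1.52 and -0.95, than over all mice of that day. For Pax5 the differences within the slide were 0.45, 0.28, 0.10 and 0.10, above 0 at days 7 and 9, where the difference over all mice was below 0. Those of Ikzf3 were 0.40, 1.09, 0.20 and 0.86.

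The 250 bases before the start site of the members were searched on both strands for letters that proteins of these families bind, in RefSeq promoters of GRCm38.p6. Entries were found for 7 of the 8 genes, with 8 start sites in all because Ebf1 had 2. Overlapping matches were allowed, and the motifs were the octamer ATGCAAAT, TCCC and GGGA set 2 bases apart for Ebf proteins, AGGAAGT for Ets proteins, TGAGTCA for Bach proteins, TGACCA for Bcl11a and TGGGAA for Ikaros proteins. Of 32851 promoters, 1.6%, 0.779%, 7.69%, 4.46%, 11.4% and 21.6% held them in that order. Of the 8 windows, 2 held the Ikaros letters and 0 held any of the others. Those 2 windows are shown with the match in capitals, since they hold the only matches among the members. A match is a description of the letters and no binding site was measured. They are Ebf1 at chr11:44619978-44620227 and Bcl11a at chr11:24080445-24080694, both on the plus strand.
Ebf1: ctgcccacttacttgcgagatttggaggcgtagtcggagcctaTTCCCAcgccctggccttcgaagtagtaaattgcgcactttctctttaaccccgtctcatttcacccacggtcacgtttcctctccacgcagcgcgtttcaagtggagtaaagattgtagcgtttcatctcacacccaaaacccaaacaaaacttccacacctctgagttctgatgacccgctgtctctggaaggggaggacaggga
Bcl11a: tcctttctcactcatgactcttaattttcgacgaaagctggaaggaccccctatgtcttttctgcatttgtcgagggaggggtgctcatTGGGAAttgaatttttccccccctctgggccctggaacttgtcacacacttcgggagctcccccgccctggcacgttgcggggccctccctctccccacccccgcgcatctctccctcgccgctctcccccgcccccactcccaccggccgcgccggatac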

How the data were processed

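The authors deposited 1 scanner file for each of 56 arrays. Its processed signal is an intensity, linear and background-corrected by Agilent Feature Extraction (version 10.7 in the submitters' processing notes, 11.5.1.1 in the file headers), with no scaling between arrays. Globin transcripts had been reduced before labeling. The authors also deposited processed log2 values, which served as an alternative here. Control spots were dropped and non-uniform spots set to missing. Spots of the same probe were averaged as log2 values, from which the array's median over 43020 spots was subtracted. The detection filter dropped a probe once 25% of arrays flagged it as non-uniform or dim, which left 18797 genes. The variation filter then asked for a 1.5-fold departure from the probe's median in 20% of arrays, which left 14581 genes. The probe of highest mean stood for its gene.

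Each day was fitted by itself with limma 3.58.1 in R 4.3.3 (lmFit and eBayes, with statmod 1.5.0 for random blocks), and adjusted p are Benjamini-Hochberg values over all genes tested. The F tests came from a fit of all 10 groups. Where a probe was well above background on no array of a group, the fold is a bound: the mean of the brighter group over the mean, across the dimmer group's arrays, of the lowest signal well above background or, where higher, that of the probe itself. Named were the 8 members, their tested relatives, up to 4 genes of highest control mean from each other list and the 3 genes most like each member. Blk, Cd180, Fcrl1, Cd22, Tcf3, Mef2c and Sdc1 fall outside that rule and were chosen after their values were seen. The members and lists were chosen with earlier results of these data known. Each replicate was 1 mouse. Replicate numbers were not taken to pair mice, since 8 of 28 same-numbered pairs had deviations correlating over 0.1. The fits were tested on simulated data. Other scalings, backgrounds, filters, thresholds and blocks, and each array left out, were run as alternatives.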

Additional observations from a re-analysis of the deposited data

Results flagged for a closer look

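In 80 sets of values, the 8 members in each of the 10 groups, 6 held a mouse that lay apart from the rest of its group by a gap test that chance meets in about 1 in 20 groups. These came from 3 mice, and irradiated replicate 6 of day 7 accounted for 4 of them. Its log2 signal minus the array median was 3.91 for Spib, where the other irradiated mice of day 7 lay between 5.42 and 6.01. It was 0.83 for Pou2f2 (others between 2.13 and 2.70) and 2.47 for Bcl11a (others between 3.67 and 3.95). For Ikzf3 it was the highest, at 4.37, where the others lay between 3.53 and 3.73.

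The other 2 sets concerned control mice. For Pax5, control replicate 6 of day 25 measured 1.002, while the other controls of that day lay between 0.26 and 0.51. For Bcl11a, control replicate 4 of day 30 measured 3.81, while the others lay between 4.49 and 4.78. The measured difference of Pax5 between irradiated and control mice varied between days in limma's F test of the interaction (adjusted p = 0.00613). Over all genes tested, 22.5% passed that test. Pax5 did not pass with the slide as a random block (adjusted p = 0.178 from limma).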

How the results depend on the processing

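With 1 array left out at a time, the count of members lower than the B cell gene mean ran from 1 to 3 at day 4, from 0 to 1 at day 7 and from 1 to 2 at day 9, and that of members whose effect differed between days from 1 to 3. The members called lower at all 5 days numbered 4 with 75th percentile, detected-probe median or quantile scaling. With the slide as a fixed block 3 members were called lower at day 9 and 0 at day 25. The other listed genes called lower at day 25 fell from 44 to 3 with that block. The cause was not tested.

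Members whose effect differed between days numbered 2 with spike-in scaling, the filter on signals well above background or the detection filter alone, and 0 with the slide as a random block or normexp with a capped local background. Members that differed between control days numbered 8 with spike-in scaling, 1 with the random slide block or capped normexp, and 6 in a fit of the control mice alone. The last fit and capped normexp were added after the data were seen. The planned normexp was not run, since it could not be fitted on 21 of the 56 arrays. Over all genes tested, 48.2% differed between control days in the main fit and 62.3% in the control mice alone. The member counts of the other settings in this section have no such share beside them, and do not set the members apart from other genes.

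Members lower than the B cell gene mean at day 4 numbered 2 with quantile normalization, 1 fit of 10 groups or the B cell gene median, and 3 with the mean of probes or the authors' processed values. At day 7 there was 1 with capped normexp, 1 fit of 10 groups, the slide as a fixed or a random block, or the scan day as a block. At day 9 there was 1 with the filter on signals well above background, either slide block or 4 B cell genes. At day 25 there was 1 with capped normexp and there were 2 with the mean of probes or the authors' values. At day 30 there were 2 with capped normexp or the mean of probes, and 0 with the filter on signals well above background, the fixed slide block or the scan day. Members higher than that mean numbered 4 at days 9 and 30 with capped normexp, and 6 at day 9 with 4 B cell genes.

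With the replicate block, which assumes a pairing that the deviations did not bear out, 1 member was lower than the B cell gene mean at day 9, and the day 7 call of Ebf1 was lost (adjusted p = 0.0052 from limma).

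The sign of Pax5 turned at days 4 and 7 with 75th percentile scaling (0.23 and 0.12) and detected-probe scaling (0.20 and 0.086), at days 7 and 9 with the fixed slide block (0.45 and 0.28), at day 7 with the scan day (0.46), and at days 4, 7 and 9 on its other probe (0.19, 0.20 and 0.58). That of Ikzf3 turned with spike-in scaling at days 4, 7 and 9 (-0.35, -1.74 and -0.43). The other Bach2 probe, not above background, gave 0.18 and 0.42 at days 7 and 9, and the third Bcl11a probe 0.60, 0.52, 0.74, 0.63 and 0.46. Spike-in scaling shifted the median of detected probes by -0.56, -1.95, -1.36, -0.64 and -0.43 in order of day, and 75th percentile scaling by 0.45, 0.32, 0.32, 0.35 and 0.27. Signals of Ebf1 and Pax5 close to background limit both genes.

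Of the 106 tested genes of the other lists, 40, 39, 34, 44 and 40 were called lower in order of day, and 36 to 42, 35 to 40, 34 to 37, 41 to 46 and 37 to 44 with 1 array left out. Called higher were 1, 1, 6, 0 and 12, and 0 to 1, 1 to 2, 5 to 7, 0 to 2 and 9 to 13 with 1 array left out. All these counts include genes that no mouse of a group, or of either group, had well above background. With 75th percentile scaling 25 and 28 were lower at days 7 and 25, and 12, 6, 16, 11 and 19 higher in order of day. With detected-probe scaling 10, 6, 16 and 10 were higher at days 4 to 25. Spike-in scaling gave 109 lower at day 7 (of the genes that passed its filter), 88 at day 9 and 69 at day 25, and 0 higher at days 4, 7, 9 and 30. With an adjusted p under 0.05 and no fold, 62, 64, 57 and 72 were lower at days 4 to 25, and 12, 13, 13, 11 and 19 higher in order of day. With the fixed slide block 3 were lower at day 25 and 18 at day 30, and 0, 1 and 1 higher at days 7, 9 and 30. The scan day as a block gave 25 lower at day 30, and 2 and 4 higher at days 7 and 30. Counts called higher also moved with quantile normalization (4, 3 and 7 at days 4, 7 and 30), the authors' values (2, 2 and 3 at those days), capped normexp (0 at days 4, 7, 9 and 30), the replicate block (0 and 2 at days 4 and 9), an adjusted p under 0.05 with 2-fold (2 at days 4 and 25), the mean of probes (2 at day 7), reference array scaling (1 at day 25), and the filter on signals well above background or 1 fit of 10 groups (0 at day 4).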
